A study of Gossypium bickii with 18 samples.

Results

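A set of 207 gene IDs of the Australian diploid cotton Gossypium bickii had transcript levels that stood high in germinating cotyledons at 12 h and low before and after. They were chosen by a rule on the mean FPKM (fragments mapped to a gene, scaled to gene length and library size) of the 3 libraries at each time. The mean at 12 h had to be at least 10 FPKM, at least 4 times the means at 0 h and 48 h and at least 2 times those at 24 h and 36 h. The 207 members are 0.473% of the 43790 gene IDs in the time course and 2.28% of the 9090 IDs with a 12 h mean of at least 10 FPKM. Because this rule read the values themselves, the height of the 12 h level over the other times is a description and was not tested.

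The series profiled bulk RNA of whole cotyledons along germination and under light or dark. The groups are 0 h after imbibition, for which the labels give no light condition, then 12, 24, 36 and 48 h after imbibition under light, and 24 h after imbibition in the dark. Each group has 3 libraries, called biological replicates in the labels, which do not say whether these came from separate plants or seed lots. The p-values therefore measure only the spread between these libraries. No library was made in the dark at 12 h, so imbibition and light cannot be told apart in the 12 h level. The files pair no gene ID with a name, so members are given by ID, without names, functions or sequences.

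Imbibition is the uptake of water that restarts metabolism in a dry seed. A dry seed holds messenger RNA stored during maturation, and transcription of other genes begins soon after water enters, before and around the emergence of the root. Cotyledons, the seed leaves, hold the reserves of a cotton seed, and they turn from storage organs into green leaves as the seedling reaches light. In bulk RNA, fewer cells of one type and less RNA per cell cannot be told apart.

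Some libraries stood apart from others of their time in the members' levels. At 0 h, 162 of the 207 members were highest in replicate 2, where 44.4% of the 26086 tested genes were highest. At 24 h light, 159 members were highest in replicate 2, against 33.9% of tested genes. At 36 h, 180 were highest in replicate 3, against 33.8% of tested genes. At 12 h, 23 members were highest in replicate 2, against 42.8% of tested genes. At 48 h the members were highest in replicates 1, 2 and 3 in 28, 85 and 94 cases, against 22.2%, 20.8% and 57.0% of tested genes. Libraries that stood apart at 0, 24 and 36 h were left out in turn. Counts called, stepwise or overlapping, and the main medians, are also given without them below where they move. The median for 36 h against 24 h was not computed without 24 h light replicate 2.

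Together the members took a large share of the transcript pool at 12 h. Their summed FPKM made up 12.5%, 10.9% and 12.4% of the total in 12 h replicates 1, 2 and 3, a mean of 11.9% ± 0.938 (SD, n = 3). The 0 h libraries held 0.176%, 0.668% and 0.178%, with replicate 2 more than 3 times as high as either other. The 24 h light libraries held 3.40%, 4.47% and 3.79%, the 36 h libraries 1.88%, 1.69% and 3.64%, and the 48 h libraries 0.997%, 1.15% and 1.04%. The 36 h replicate 3 thus lay within the range of the 24 h libraries. The 10 highest members held 49.7% of the members' summed 12 h mean, and 31 members were among the 100 highest IDs at 12 h.

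**Figure D1:**
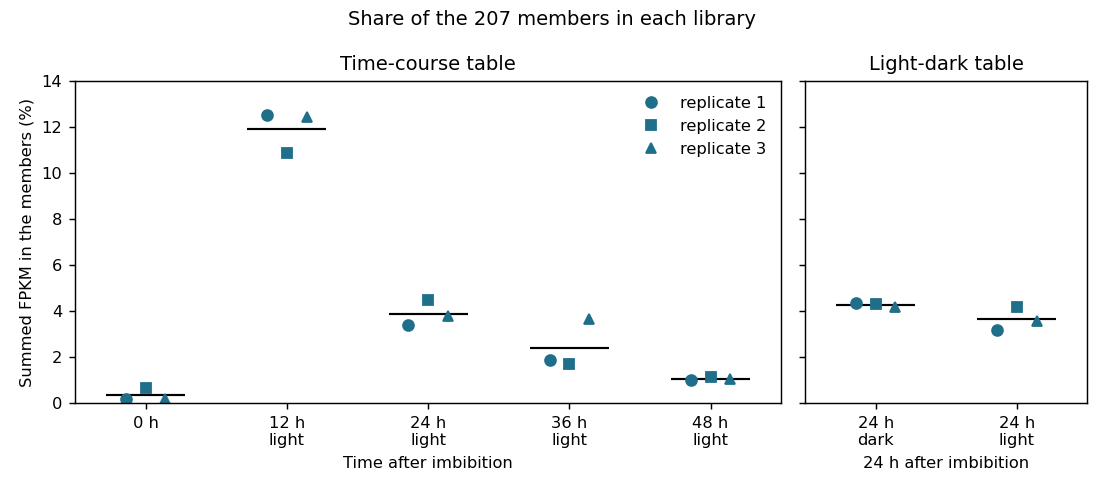
Share of summed FPKM in the 207 members (vertical axis, percent) for each library of the time-course table and of the light-dark table, with replicates 1, 2 and 3 as circle, square and triangle and the group mean as a line. The 12 h libraries sit between 10.9% and 12.5%, 0 h replicate 2 above the other 0 h libraries, and 36 h replicate 3 among the 24 h values.

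Members ranged widely at 12 h, from 10.1 to 6261 FPKM with a median of 59.5. At 12 h, 91 stood at 100 FPKM or more, 15 of them at 1000 or more, and 47 stood under 20. The median over members was 2.67 FPKM at 0 h, then 20.9 in the 24 h light libraries, 13.9 after 36 h and 5.46 after 48 h. As a share of its own 12 h mean, the median member reached 3.21% in the 0 h libraries, 34.5% by 24 h of light, 23.3% by 36 h and 10.2% by 48 h. The quartiles of that share were 25.9% and 43.2% at 24 h and 4.51% and 15.9% at 48 h.

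The way down from 12 h was stepwise in most members, in part by the rule. It set the first step, and its stricter limit at 48 h favours the last. The share among all IDs was not counted, so nothing is read from this order. In 175 of 207 the means stood lower at each time after 12 h than at the time before. The count was 142 without 24 h light replicate 2, 171 without 36 h light replicate 3 and 159 without both, in the same 207 members, alternatives added after the data were seen. The next highest time was 24 h in 184 members, 36 h in 22 and 48 h in 1, Gbi09G2045, named after its values were seen (4.50 ± 0.759 FPKM against 4.40 ± 0.821 for the 24 h libraries, SD, n = 3). The lowest time was 0 h in 148 members, 48 h in 58 and 36 h in 1, Gbi11G2465, likewise named after its values were seen (3.31 ± 0.627 FPKM at 36 h and 4.42 ± 0.844 at 48 h).

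Replicate error at 12 h was moderate. The coefficient of variation over the 12 h libraries had a median of 14.96% over members, with quartiles of 9.81% and 23.0%, and was 19.6% in the 47 members under 20 FPKM against 14.3% in the 91 at 100 FPKM or more. In 193 members every 12 h library lay above every library of the other times. Among all 26086 tested genes 6.49% did so, but the rule used this contrast and nothing is read from the difference. In the other 14 members the highest library outside 12 h was 36 h replicate 3 in 9 and 24 h light replicate 2 in 5. Without 36 h replicate 3 the number with overlap was 6, without 24 h light replicate 2 it was 12, and without both it was 1, likewise added after the data were seen.

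**Figure D2:**
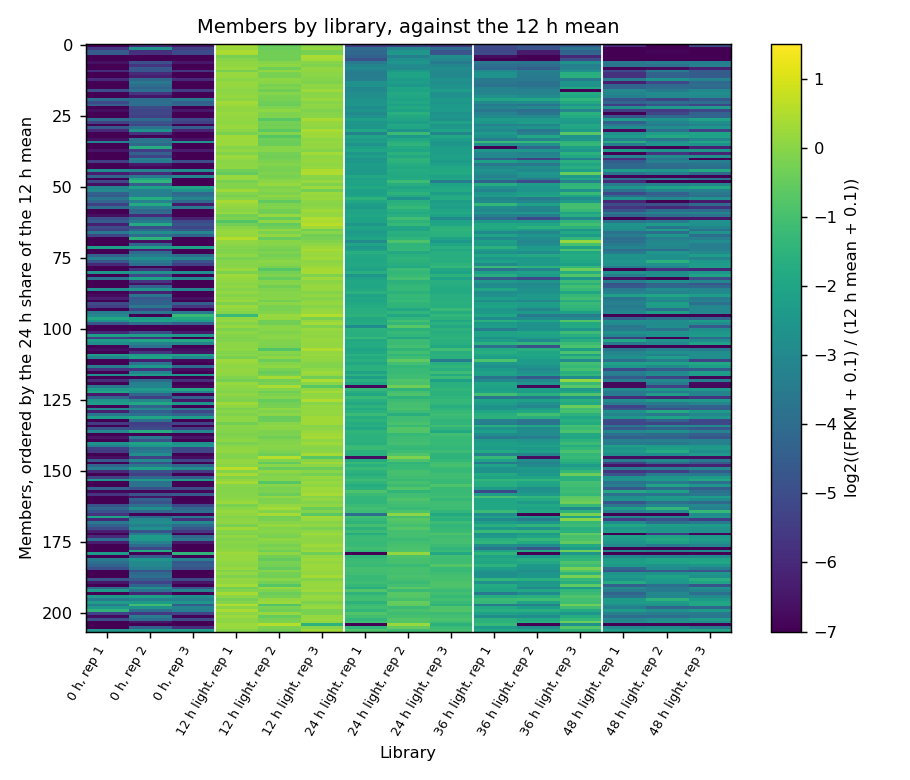
Levels of the 207 members (rows, ordered by the 24 h mean as a share of the 12 h mean) in the 15 libraries of the time course (columns), as log2 of FPKM + 0.1 over the 12 h mean + 0.1. The 12 h columns are high by the rule, and 0 h replicate 2, 24 h light replicate 2 and 36 h light replicate 3 are brighter than their neighbours.

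The members with the highest 12 h means were Gbi09G2338 and Gbi01G0290. Gbi09G2338 stood at 14.04, 267 and 13.8 FPKM at 0 h (replicates 1, 2 and 3) and reached 6894, 5073 and 6817 at 12 h. It then read 2309, 3390 and 2916 in the 24 h libraries, 1458, 1128 and 2062 after 36 h, and 704, 677 and 794 after 48 h. Its 0 h replicate 2 was far above the other 0 h libraries, and its levels at each later time did not overlap those at the time before or after. Gbi01G0290 stood at 55.2, 549 and 49.02 FPKM at 0 h and reached 7050, 4191 and 6664 at 12 h. It then read 2852, 3073 and 2893 in the 24 h libraries, 857, 843 and 1771 after 36 h, and 385, 389 and 468 after 48 h. Here too 0 h replicate 2 and 36 h replicate 3 were the high libraries of their times. These 2 IDs alone held 18.99% of the members' summed 12 h mean.

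The ratio of the 12 h mean to the next highest mean had a median of 3.17 in the members at 100 FPKM or more, 2.53 in those from 20 to 100 and 2.81 in those under 20. The highest ratios were those of Gbi08G0614 and Gbi08G0141. Gbi08G0614 stood at 74.0, 41.7 and 56.5 FPKM at 12 h, and its highest value in any other library was 2.29. Its 12 h mean was 28.9 times the next highest mean, that at 36 h, and 46.8 times the 24 h mean. Gbi08G0141 stood at 76.9, 48.6 and 71.3 FPKM at 12 h, 12.9 times its 24 h mean of 5.10 ± 2.02 (SD, n = 3), and at 0.221, 0 and 0.122 FPKM at 48 h. It also read 10.2 FPKM in 0 h replicate 2, against 1.19 and 1.46 in the other 0 h libraries. Only 5 of the 207 members had a 12 h mean at least 10 times the next highest mean. The others of these were Gbi12G3306, Gbi13G1735 and Gbi13G1710, named here after their values were seen.

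At the other end, 116 members had a 12 h mean less than 3 times the next highest mean. Gbi07G1870 stood at 18.6, 15.7 and 23.8 FPKM at 12 h and at 10.4, 8.996 and 9.59 at 24 h, a ratio of 2.00. Gbi07G0534 stood at 313, 343 and 312 FPKM at 12 h and at 158, 121 and 204 at 36 h, a ratio of 2.01. In both, the 12 h libraries still lay above all others.

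The largest spread at 12 h was in Gbi05G1373, with 82.4, 103.4 and 24.8 FPKM (coefficient of variation 58.0%). It stood at 0.0993, 80.5 and 24.2 FPKM at 24 h and at 28.5, 0.136 and 10.5 at 36 h, so its libraries at 12, 24 and 36 h overlapped. Gbi01G1012 followed, with 9.95, 26.9 and 33.5 FPKM at 12 h (51.8%).

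Some members were barely present at the start. At 0 h, 36 members were under 1 FPKM in all 3 libraries, and 5 were listed at 0 in all 3. The highest of these at 12 h were Gbi03G1385, with 30.2, 26.9 and 24.3 FPKM, and Gbi13G1956, with 17.9, 15.5 and 21.4 FPKM. The remaining ones, named after their values were seen, were Gbi12G0239, Gbi11G1422 and Gbi04G0779. At 48 h, 25 members were under 1 FPKM in all 3 libraries. In 0 h replicates 1, 2 and 3, 106, 166 and 104 of the 207 members reached 1 FPKM. Of all 43790 IDs, 16841, 17846 and 16968 did so. The rule favours low levels at 0 h and 48 h, so nothing is read from these counts.

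**Figure D3:**
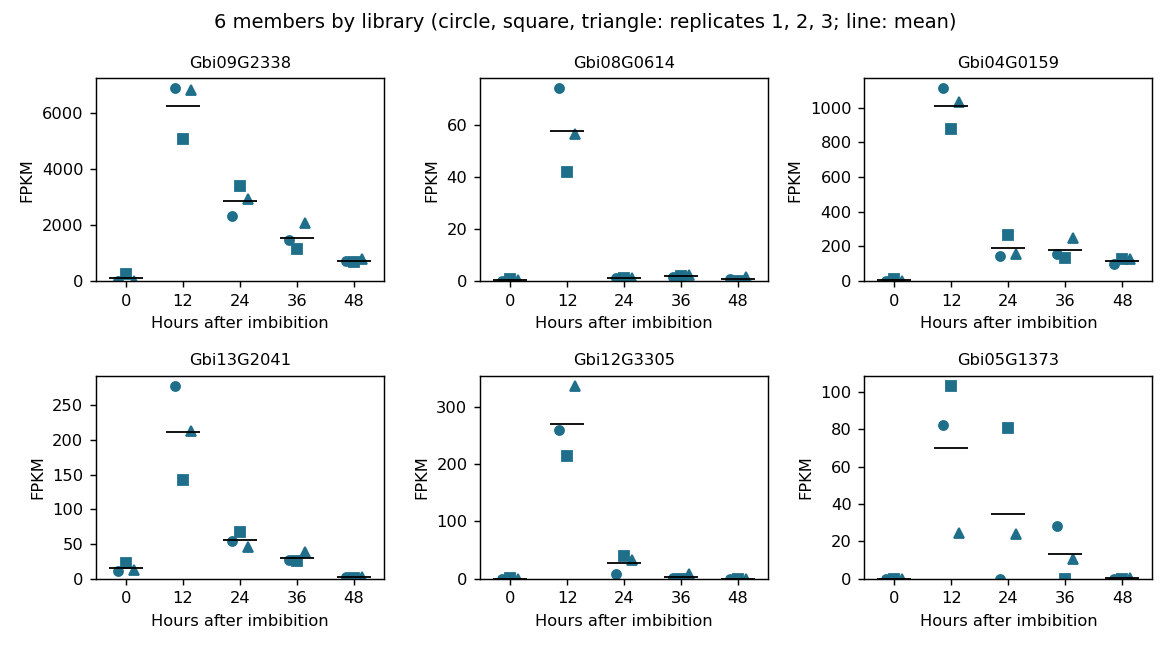
FPKM of 6 members in every library of the time course (vertical axis from 0, a scale for each panel) against hours after imbibition, with replicates 1, 2 and 3 as circle, square and triangle and the mean as a line. Gbi09G2338 steps down over the later times, Gbi08G0614 is low everywhere outside 12 h, and Gbi05G1373 is spread over its libraries at 12, 24 and 36 h.

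Members just inside the limits of the rule differed little from IDs just outside. Gbi03G1761 entered with a 12 h mean of 10.1 ± 4.40 FPKM (SD, n = 3), while Gbi03G0307, at 9.79 ± 3.01, met all other limits and did not. Gbi01G1856 stood at 4.03 times its 0 h mean, and Gbi10G1910, at 3.81 times, was out. Gbi12G2255 stood at 4.09 times its 48 h mean and Gbi07G0883 at 3.97 times. For 24 h the nearest member was Gbi07G1870 above, and Gbi09G3380, at 1.99 times, was the nearest ID outside. For 36 h the nearest were Gbi07G0534 inside and Gbi10G0645, at 1.98 times, outside. Counting IDs that missed just one limit, 635 missed the 12 h level alone, 135 the 24 h limit, 114 the 0 h limit, 58 the 48 h limit and 11 the 36 h limit.

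The 12 h peak was then read in libraries the choice had not used. The rule was applied to the means of the libraries with 2 of the 3 replicate numbers, and the remaining libraries, 1 per time, were set aside. The numbers serve as names here, and the labels do not say whether they pair libraries. IDs chosen without replicate 1 numbered 175, and in replicate 1 itself 174 of them (99.4%) were highest at 12 h and 147 (84.0%) met every limit. Without replicate 2, 238 IDs were chosen, of which 231 (97.1%) were highest at 12 h in replicate 2 and 105 (44.1%) met every limit. Without replicate 3, 194 were chosen, of which 184 (94.8%) were highest at 12 h in replicate 3 and 136 (70.1%) met every limit. Among all IDs with a 12 h mean of at least 10 FPKM in the libraries used, 32.1%, 31.6% and 29.6% were highest at 12 h in the libraries set aside. These IDs were chosen by level and not by a peak, so nothing is read from the difference. In the libraries set aside the median ratio of 12 h to the next highest time was 3.27, 2.08 and 2.57 over the chosen IDs. In nearly all chosen IDs the time of the peak was the same in the libraries set aside, which belong to the same groups. The rule for the members used all these libraries, so this is a description and no separate support for the peak. The size of the peak in a single set of libraries often missed a limit.

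Whether the members were back at their 0 h level was asked by comparing 48 h with 0 h, times that the rule holds to the same limit against 12 h without fixing which is higher. Both means entered the choice of members, so the limma p-values are not independent of that choice. The shares of all genes are printed as background and nothing is read from a difference to them. At 48 h, 93 of the 207 members (44.9%) were higher than at 0 h and 10 (4.83%) were lower, at an adjusted p under 0.05 and a log2 difference of at least 1 (limma, Benjamini-Hochberg adjustment over all genes tested). Over all 26086 genes tested 44.1% were higher and 16.2% lower. By construction, the limits at 0 h and 48 h keep IDs with levels high against 12 h at either time out of the set. The median log2 difference was 0.91 over the members and 0.74 over all genes. Called differences ran from 1.00 to 5.39 among higher members, with a median of 2.23, and from -2.40 to -1.03 among lower ones.

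Gbi04G0159 stood at 0.416, 10.9 and 0.334 FPKM at 0 h and at 99.4, 126.7 and 126.9 at 48 h, after 1114, 878 and 1033 at 12 h. Its 48 h level was higher by 5.39 on the log2(FPKM + 1) scale (SE 0.61, limma adjusted p = 1.15e-06). Gbi02G0647 stood at 0.0411, 3.68 and 0.14 FPKM at 0 h and at 42.0, 53.8 and 48.9 at 48 h (log2 difference 4.79, SE 0.45, limma adjusted p = 1.61e-07). In both, the 0 h and 48 h libraries did not overlap, and 0 h replicate 2 was the highest at 0 h. Without it the log2 differences were 6.42 and 5.49.

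Some members ended below their 0 h level. Gbi13G2041 stood at 11.1, 22.2 and 12.3 FPKM at 0 h and at 3.03, 0.882 and 2.35 at 48 h, a log2 difference of -2.40 (SE 0.32, limma adjusted p = 7.74e-06), after 278, 142 and 212 at 12 h. Gbi08G2209 stood at 12.7, 20.5 and 13.7 FPKM at 0 h and at 2.55, 2.85 and 3.25 at 48 h, a log2 difference of -2.07 (SE 0.22, limma adjusted p = 6.55e-07), after 238, 237 and 247 at 12 h. Neither ID had overlapping libraries between 0 h and 48 h. Without 0 h replicate 2 the log2 differences were -2.11 and -1.87.

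These calls depended on scaling and on one library. Quantile normalization gave 62 higher and 39 lower members, and median-of-ratios scaling 73 and 19, with medians over all genes of -0.0039 and 0.36 in place of 0.74. The members' own median was -0.05 after quantile normalization, with 100 above 0 and 107 below, 0.66 after median-of-ratios scaling and 1.21 after rescaling to TPM. Under quantile normalization the members' median was thus near 0 and changed sign, as did the median over all genes. Without 0 h replicate 2, 115 members were higher and 10 lower, and 7 of the latter were among the 10 members called lower with all libraries. The members' median was then 1.18, with 162 above 0 and 42 below.

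**Figure D4:**
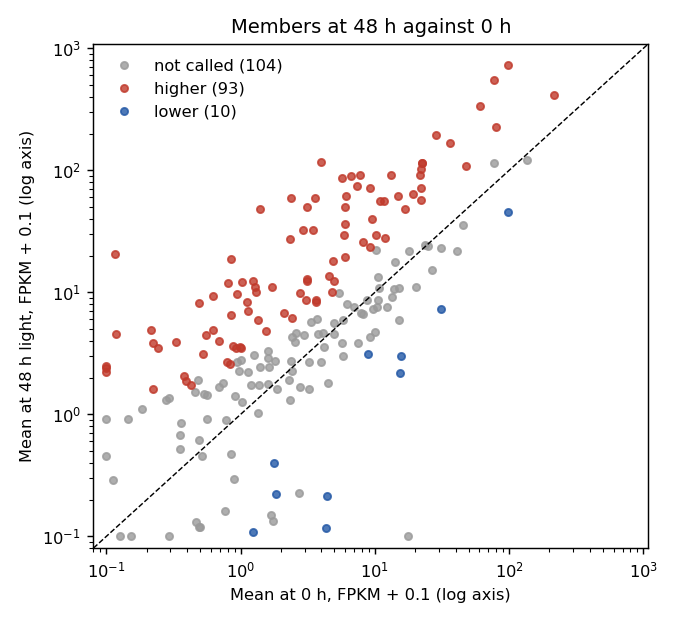
Mean FPKM + 0.1 of each member at 48 h (vertical, log axis) against 0 h (horizontal, log axis), coloured by the limma call on log2(FPKM + 1), with the line of equal values. Most members lie above the line, 93 of them called higher and 10 called lower at 48 h.

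The members called different between 24 h and 36 h were lower at 36 h. The rule used both means, each against 12 h, and its stricter limit at 48 h also bears on which IDs could enter. The contrast and its limma p-values are therefore not independent of the choice. The members' shares are a description beside those of all genes, and nothing is read from the difference. At 36 h, 17 of 207 members (8.21%) were lower than at 24 h by the same call, and 0.579% of all genes tested were lower. No member was higher by limma (0 of 207, against 2.58% of all genes), and 2 were higher at an unadjusted p under 0.05, against 65 lower. The median log2 difference was -0.53 over the members and 0.01 over all genes, and 188 of 207 differences lay below 0. The members' median was -0.79 without 36 h replicate 3, with 197 below 0, -0.33 without replicate 2, with 163 below 0, and -0.43 without replicate 1, with 174 below 0. Called differences ran from -2.97 to -1.11.

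Gbi12G3305 stood at 8.95, 40.1 and 32.1 FPKM at 24 h and at 2.02, 0 and 8.38 at 36 h, after 260, 213 and 337 at 12 h (log2 difference -2.97, SE 0.63, limma adjusted p = 0.0126). All 3 libraries at 48 h listed it at 0. Its limma call was lost without 24 h light replicate 2 (log2 difference -2.57, adjusted p = 0.0533), 24 h light replicate 3 (-2.73, 0.0624) or 36 h light replicate 2 (-2.16, 0.0517). It was also lost with a pseudocount of 0.1 (limma adjusted p = 0.0736), with no filter (0.0540) and in a fit of the 2 groups alone (0.170). Gbi12G3306, the next ID number, stood at 7.585, 15.3 and 22.8 FPKM at 24 h and at 1.39, 0.29 and 2.25 at 36 h, after 132, 127 and 209 at 12 h (log2 difference -2.79, SE 0.35, limma adjusted p = 0.000596). It too was listed at 0 throughout 48 h, and its call was lost in the fit of the 2 groups alone (limma adjusted p = 0.0846). The 24 h and 36 h libraries of each ID did not overlap.

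The number of lower members turned on single libraries. Without 36 h replicate 3, in which the members stood high, it was 42, and without 36 h replicate 2, 36 h replicate 1, 24 h light replicate 3 or 24 h light replicate 2 it was 6, 10, 7 and 9. In a limma fit of the 24 h and 36 h libraries alone 0 members passed in either direction, against 70 lower and 3 higher at an unadjusted p under 0.05.

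The dark libraries at 24 h took no part in the choice of members, and asked how the members stood without light. The light libraries at 24 h did take part, through the limit on the 24 h mean, in another table than the one used here. That limit favours IDs low in light. Values over all genes are therefore printed as background, and nothing is read from a difference to them. Of the 207 members 185 passed the filter in the light-dark table, which was fitted on its own. Under light 6 of these (3.24%) were higher and 3 (1.62%) lower than in the dark, against 2.55% and 0.607% of the 23059 genes tested. The median log2 difference was -0.03 over the members and 0.13 over all genes, and 168 of the 185 lay within 1 log2 unit. Without light replicate 2 the members' median was -0.19, with 77 above 0 and 108 below. It was -0.17 with median-of-ratios scaling, with 68 above 0 and 117 below. After rescaling to TPM it was 0.07, with 98 above 0 and 87 below. The members' share of summed FPKM was 4.35%, 4.30% and 4.17% in dark replicates 1, 2 and 3 and 3.20%, 4.20% and 3.56% in the light replicates. The ranges overlapped, with light replicate 2 above dark replicate 3.

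The members lower under light were Gbi10G1104, Gbi01G0286 and Gbi05G0068, the last outside the naming rule and given because the count is small. Gbi10G1104 stood at 1479, 1145 and 822 FPKM in the dark and at 449, 408 and 605 in light (log2 difference -1.22, SE 0.24, limma adjusted p = 0.0368). Leaving out any single library other than dark replicate 3 ended this call, with limma adjusted p of 0.0708 to 0.139, and with the replicate number as a block it was 0.0660. It was 0.219 with no filter and 0.0562 after quantile normalization, again by limma. Gbi01G0286 stood at 454, 405 and 332 FPKM in the dark and at 163, 195 and 168 in light (log2 difference -1.17, SE 0.15, limma adjusted p = 0.00931, and 0.0598 without dark replicate 2). With no filter its limma adjusted p was 0.0868, and after quantile normalization the log2 difference of -0.94 was under the fold minimum. Gbi05G0068 stood at 274, 285 and 317 FPKM in the dark and at 101, 173 and 135 in light (log2 difference -1.12, SE 0.20, limma adjusted p = 0.0259). In each of the 3 IDs the dark libraries lay above all light libraries.

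Of the members higher under light, Gbi01G1012 read 0 in each dark library and stood at 9.15, 7.61 and 8.76 FPKM in light. It passed the filter only through the light libraries, where it is high, so its call is not counted as support. The same holds for Gbiscaffold_330G0011, at 0, 0.263 and 0.522 FPKM in the dark and 3.18, 6.49 and 1.72 in light, named after its values were seen. Both are among the 6 counted above. Gbi06G1820 stood at 61.03, 72.7 and 83.04 FPKM in the dark and at 200, 248 and 178 in light (log2 difference 1.51, SE 0.17, limma adjusted p = 0.00515), after 461, 634 and 624 at 12 h in the time course. With no filter its call was lost (limma adjusted p = 0.0724). The remaining called members, Gbiscaffold_330G0011 among them, had log2 differences of 1.18 to 1.82. The highest members in the dark were the same IDs that led at 12 h. Gbi09G2338 stood at 6605, 5496 and 4651 FPKM in the dark and at 3135, 4670 and 3880 in light, which overlapped, with a log2 difference of -0.52 (SE 0.21) that did not pass (limma adjusted p = 0.15). Gbi01G0290 stood at 4783, 4594 and 3786 FPKM in the dark and at 3422, 3728 and 3490 in light, without overlap, but the log2 difference of -0.30 (SE 0.16) did not pass (limma adjusted p = 0.238).

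These counts were small and moved with the libraries. Leaving out each library in turn gave 2 to 11 members higher and 0 to 9 lower under light. The lowest count of higher members, 2, came without light replicate 2, dark replicate 1 or dark replicate 2, and without light replicate 3 it was 3. Without dark replicate 3 the counts were 11 higher and 8 lower. Without light replicate 2, in which the members stood high, 9 were lower, and without light replicate 1, light replicate 3 or dark replicate 1 it was 1 each. Without dark replicate 2 none was lower by limma, with 28 at an unadjusted p under 0.05.

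**Figure D5:**
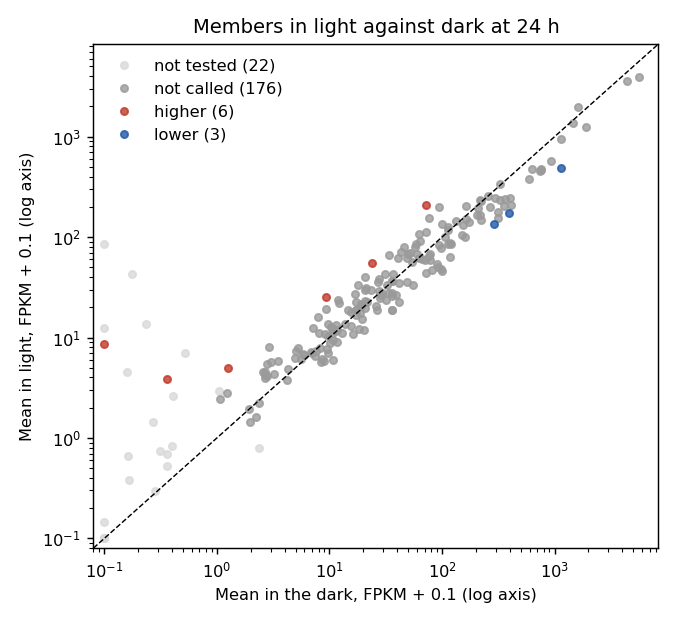
Mean FPKM + 0.1 of each member in light (vertical, log axis) against dark (horizontal, log axis) at 24 h, coloured by the limma call, with the line of equal values. Most points follow the line, and 22 members that did not pass the filter are shown in pale grey.

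Of the 22 members not tested, 4 were listed at 0 in all 6 libraries of the light-dark table although the time course gives them values at 24 h. The highest of these was Gbi04G0457, at 92.3 ± 35.2 FPKM (SD, n = 3) at 24 h light in the time course. The others were Gbi04G1210, Gbi11G1422 and Gbi13G1710, all 4 named after their values were seen. The tables hold the same light libraries with values made separately, and over 174 members the light-dark table read higher by a median of 0.32 log2 units, as over all genes (0.33). Of these members 9.20% lay more than 2-fold from that median, against 8.95% of all genes.

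Some members had near neighbours in ID number. There were 11 pairs with consecutive numbers, holding 21 members, and 52 members lay within 10 numbers of another. The share among other IDs was not counted, so nothing is read from these counts. The labels and headers do not say what the number order stands for. The pair highest at 12 h was Gbi12G2048, at 1960, 1767 and 1950 FPKM, and Gbi12G2049, at 3626, 2608 and 3347. The longest run held 5 members between Gbi01G0283 and Gbi01G0293, namely Gbi01G0283, Gbi01G0286, Gbi01G0287, Gbi01G0290 and Gbi01G0293. The time course has 11 IDs in this run, of which 7 reached a 12 h mean of 10 FPKM, and all 7 were highest at 12 h. For 5 of the 7 the rule made it so, and 3058 of the 9090 IDs at that level (33.6%) were highest at 12 h, so nothing is read from the run. The non-members among the 7 were Gbi01G0288, at 303 ± 135 FPKM at 12 h and 159 ± 15.4 at 48 h, and Gbi01G0292, at 109 ± 28.9 and, in the 24 h light libraries, 84.1 ± 12.0 (SD, n = 3 throughout). The run was singled out after its values were seen.

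A few members kept nearly fixed ratios to each other. Whether such IDs share reads was not tested. Gbi13G1710 and Gbi13G1735 stood at 22.2, 12.6 and 13.6 and at 22.4, 13.0 and 14.2 FPKM at 12 h. The SD of their log2 ratio was 0.06 over the 4 libraries in which both reached 1 FPKM. Gbi13G4112 stood at 328, 249 and 295 FPKM at 12 h and Gbi13G4114 at 320, 239 and 281, with an SD of the log2 ratio of 0.11 over 13 libraries. No other pair of members had an SD under 0.15 over 3 or more libraries.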

How the data were processed

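Values are FPKM as deposited by the authors in 2 tables, one of 15 time-course libraries and one of 6 libraries at 24 h in light or dark. The submitters' processing notes name Trimmomatic 0.36, HISAT2 2.0.4 and HTSeq 0.6.0. For settings, genome build, annotation and strand the sources used here give nothing. The time-course columns at 24 h name no light condition and were taken as light, since the dark libraries have columns in the other table. Depth is unknown from FPKM. Low values fell on whole-fragment steps in the light-dark table, giving depths of 1.05 to 1.16 relative to dark replicate 1, and on none in the time course.

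Tests used limma 3.58.1 in R 4.3.3 on log2(FPKM + 1), with a mean-variance trend and two-sided p-values adjusted by Benjamini-Hochberg over all genes that reached 1 FPKM in 3 or more libraries. The scale understates differences of low genes. All 5 times shared 1 fit, and the light-dark table had its own. The 12 h libraries alone let every member pass the time-course filter. On simulated tables with 200 genes changed by 2 log2 units, 95% were recovered for 48 h against 0 h and 93% for each other comparison. False calls numbered 1 for 48 h against 0 h, 8 for 36 h against 24 h and 6 for light against dark. Changed genes were drawn only from those with higher mean levels, and no simulated library stood apart. Recovery at low levels or for smaller differences was not simulated.

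The IDs named were the extremes of the members in 12 h level, peak ratio, spread, dark level and each tested comparison (2 each), and those nearest the limits. The members and lists were chosen with earlier results of these data known. As 0 IDs could be paired with names, gene lists and marker lists were not used. Replicate numbers were not treated as pairs in the main fits. Deviations from the group means correlated at -0.353 to 0.155 where numbers matched, and no comparison had all 3 above 0.1. Numbers that did not match were not compared, so whether the numbers pair libraries was not settled. Alternatives varied pseudocount, filter, scaling, fold minimum, libraries and a replicate block.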

Additional observations from a re-analysis of the deposited data

How the results depend on the processing

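The number of members stayed within 1.5 times of 207 under every setting run, from 160 with a 12 h minimum of 20 FPKM to 269 after rescaling to TPM, and leaving out single libraries gave 191 to 227. Fewer stayed the same IDs: 182 of the 207 were chosen after median-of-ratios scaling and 180 without 12 h light replicate 3. For 48 h against 0 h, the higher count was 59 with a pseudocount of 5, and the lower count was 19 with median-of-ratios scaling, 39 with quantile normalization, 17 and 3 with pseudocounts of 0.1 and 5, and 21 with no fold minimum. For 36 h against 24 h, the lower count was 8 and 10 with those pseudocounts, 9 with no filter and 0 in a limma fit of the 2 groups alone, where 70 had an unadjusted p under 0.05. For light against dark, 1 member was higher with no filter, and the lower count was 7 with median-of-ratios scaling, 9 with no fold minimum, and 0 with quantile normalization or no filter (limma, with 37 and 32 at an unadjusted p under 0.05). The cause of these moves was not tested, beyond the fewer libraries or wider gene set that define a setting.

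Leaving out each library gave 82 to 115 members higher and 10 to 12 lower at 48 h, 0 higher and 6 to 42 lower at 36 h, and 2 to 11 higher and 0 to 9 lower under light. A block for the replicate number gave 93 and 10, 0 and 13, and 6 and 2, in that order. Of the IDs named for a tested difference, none changed direction under any setting run. Unknown depth limits what can be said of low levels, such as those of the 36 members under 1 FPKM in all 0 h libraries.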

Other observations

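A group of 4 members was near 0 in some libraries at 24 h and 36 h and at a clear level in others. All 4 were also at or near 0 in every 48 h library, and Gbi05G1373 and Gbi03G1761 at 0 h as well. The group was singled out after the values were seen, and no cause was tested. Gbi01G1320, Gbi05G1373, Gbi03G1761 and Gbi04G0231 were each under 5% of the highest library of the time in both 24 h light replicate 1 and 36 h light replicate 2. Across the time course, 26 of the 9090 IDs with a 12 h mean of at least 10 FPKM had this pattern. Gbi01G1320 stood at 109, 99.9 and 72.2 FPKM at 12 h, at 0, 103.1 and 25.8 at 24 h light and at 34.9, 0 and 15.8 at 36 h, and was listed at 0 in all 48 h libraries. At 0 h it read 18.8, 0 and 34.3 FPKM. Gbi03G1761 stood at 9.33, 14.8 and 6.14 FPKM at 12 h, at 0, 8.96 and 3.52 at 24 h light and at 3.97, 0 and 4.08 at 36 h.

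The light-dark table gave the same order of the light libraries for these members. It holds the same libraries, so this is no separate support. Gbi01G1320 read 0, 215 and 42.2 FPKM in light replicates 1, 2 and 3 and was listed at 0 in all dark libraries. Gbi05G1373 read 0, 99.6 and 29.5 FPKM in light and at most 0.16 in the dark. None of the 4 reached 1 FPKM in 3 libraries of that table, so their light response was not tested. For all 4, a comparison of group means sets libraries near 0 beside libraries at a clear level.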
